A study of Mus musculus with 8 samples.

Results

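The genes described are the 77 cytoplasmic ribosomal protein genes that were the nearest gene of at least 1 IRF5 peak, out of 20824 genes named in this way in the 6 deposited peak lists. They were chosen by symbol, as Rpl or Rps followed by a number, plus Rplp0, Rplp1, Rplp2 and Rpsa, without the S6 kinase genes and without the 108 symbols of annotated ribosomal pseudogenes. Of the 77, 46 belong to the large ribosomal subunit and 31 to the small one, and they lie on 19 chromosomes. RefSeq gives 75 of them as protein-coding and 2, Rpl6l and Rps3a3, as pseudogenes. RefSeq holds 89 symbols that fit the same rule, and the other 12, among them Rpl17, Rpl27a, Rpl39, Rpl6, Rps18 and Rps2, were nearest to no peak. Being nearest to a peak was a condition for the ribosomal protein genes and for all named genes alike.

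The peaks came from CUT&Tag with an antibody against IRF5, a transcription factor that Toll-like receptors activate through MyD88. In CUT&Tag the antibody directs a protein A-Tn5 transposase to the chromatin beside the target protein, and the tagged fragments are sequenced. All samples were macrophages derived from the bone marrow of wild-type mice. The control group received PBS and the other group received CpG, an unmethylated DNA that TLR9 recognises, and each group had 2 anti-IRF5 libraries. The labels give neither the dose nor the duration of CpG, nor the age of the mice, nor whether the 2 libraries of a group came from separate animals or cultures. The spread between them may therefore be technical. The series also has 4 IgG samples, which have no peak list of their own and were not analysed here. By the names of the lists, both control libraries were called against 1 control IgG library and both CpG libraries against 1 CpG IgG library, so the background library and the treatment cannot be told apart.

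The lists held 29226 and 37315 peaks in control 1 and control 2, and 13553 and 25851 peaks in CpG 1 and CpG 2. Values of a condition are given in the order of its library numbers, so the first in each pair is control 1 or CpG 1. CpG 1 thus stood apart with the shortest list, and its peaks had a median length of 202 bp against 291 to 341 bp in the other libraries. Promoter peaks were found at 7, 8, 3 and 7 of 9 named macrophage marker genes in control 1, control 2, CpG 1 and CpG 2, and in no library at the 3 named B cell, 3 named T cell and 2 named erythroid markers. Of 4 named neutrophil markers, 1 had a promoter peak, in control 2. By the distance rule used below, the neutrophil markers had 0, 1, 1 and 1 and the erythroid markers 0, 1, 0 and 0. The part of other cell types in the results was not tested.

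Ribosomal proteins surround the ribosomal RNA of both ribosomal subunits and are needed in nearly equal amounts, so their genes are among the most strongly transcribed in growing cells. Most of their transcripts begin at a C within a run of pyrimidines, the 5' terminal oligopyrimidine tract, through which mTOR controls their translation. Macrophages that meet a Toll-like receptor ligand adjust protein synthesis while they make cytokines. IRF proteins bind DNA words in which GAAA occurs again after any 2 bases, the core of the interferon-stimulated response element.

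The starts of 8 genes whose peaks are described further on are printed here, some with such a tract and some without. Each is the 30 bases around the annotated start, 15 on each side, from the RefSeq promoter table of GRCm38.p6, read along the gene. Capitals mark a pyrimidine tract, defined as C followed by at least 5 pyrimidines and beginning within 5 bases of the start.
Rpl13a, chr7:45128731-45128760, minus strand: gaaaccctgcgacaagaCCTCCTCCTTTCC
Rpl14, chr9:120571502-120571531, plus strand: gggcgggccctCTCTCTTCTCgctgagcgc
Rpl15, chr14:18270972-18271001, minus strand: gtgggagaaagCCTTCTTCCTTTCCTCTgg
Rps9, chr7:3704026-3704055, plus strand: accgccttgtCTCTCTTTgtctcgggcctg
Rps26, chr10:128626492-128626521, minus strand: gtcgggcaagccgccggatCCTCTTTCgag
Rpl10, chrX:74270801-74270830, plus strand: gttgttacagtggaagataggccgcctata
Rpl27, chr11:101442230-101442259, plus strand: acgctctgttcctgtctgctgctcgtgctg
Rps13, chr7:116334176-116334205, minus strand: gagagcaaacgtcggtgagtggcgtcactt
The tract was present in 25 of the 67 RefSeq start windows of the 56 ribosomal protein genes that have an entry, 37.3%, against 10.2% of all 32851 windows. The last 3 sequences have no such tract at the RefSeq start. The coordinates of these sequences belong to GRCm38.p6 and cannot be set against those of the peaks, for which no build is named in the labels or file headers.

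Ribosomal protein genes carried an IRF5 peak at their start more often than named genes as a whole in each of the 4 libraries. A promoter peak here is a peak that the authors' annotation puts in the Promoter class of the gene. Such a peak was present at 34 and 40 of 77 ribosomal protein genes in the control libraries (44.2% and 51.9%) and at 14 and 32 in the CpG libraries (18.2% and 41.6%). The background was 24.1%, 28.6%, 10.4% and 22.2% of all 20824 named genes in the same order. Named genes include many that are not protein-coding, and among the 11335 that RefSeq gives as protein-coding the share was 33.2%, 38.8%, 14.1% and 30.5%. The ratio to all named genes was 1.83, 1.81, 1.74 and 1.87, and that to protein-coding genes was 1.33, 1.34, 1.29 and 1.36. The libraries thus differed widely in the number of genes with a peak and little in these ratios. The gap to all named genes averaged 17.6 percentage points over the 4 libraries, and the gap to protein-coding genes averaged 9.82 points.

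A measure by distance gave higher shares. The rule asked for a peak whose nearest gene was a ribosomal protein gene, within 1 kb of the start by the distance that the authors deposited. Such a peak was found for 46 and 66 of the 77 genes in the control libraries (59.7% and 85.7%) and for 20 and 47 in the CpG libraries (26% and 61.0%). Protein-coding genes reached 44.6%, 49.4%, 16.5% and 40.1% by this rule, and all named genes 30.7%, 34.6%, 11.6% and 27.5%. The ratio to protein-coding genes was then 1.34, 1.74, 1.57 and 1.52, with the highest value in control 2. Of the genes with a peak within 1 kb, 17 of 46, 27 of 66, 7 of 20 and 20 of 47 had no Promoter class peak, and for 9, 12, 4 and 12 of these the peak lay in an exon or 5' UTR of the gene itself. Among all named genes 37.8%, 34.6%, 35.1% and 37.3% of those with a peak within 1 kb had no Promoter class peak. At any distance, 72.7%, 94.8%, 33.8% and 71.4% of the ribosomal protein genes were nearest to a peak, against 64.0%, 72.0%, 43.1% and 61.5% of all named genes. The direction thus turned in CpG 1 when distal peaks were counted.

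**Figure D1:**
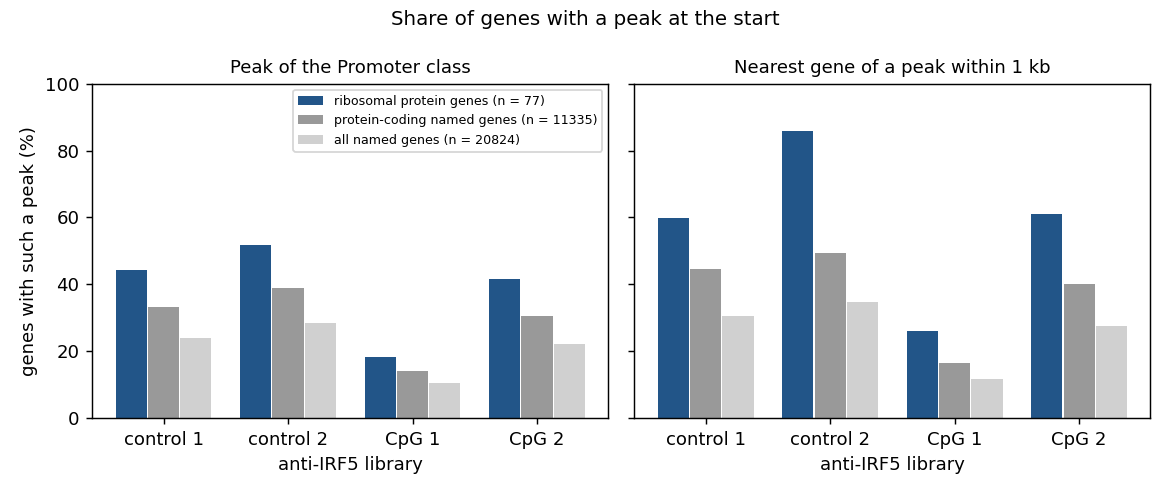
Share of genes with a peak at the start, in percent, for the 77 ribosomal protein genes, 11335 protein-coding named genes and all 20824 named genes in each anti-IRF5 library, by the authors' Promoter class (left) and by a deposited distance within 1 kb (right). The ribosomal protein bar is the tallest in every library under both rules, from 18.2% in CpG 1 to 51.9% in control 2 on the left and from 26% to 85.7% on the right.

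The peaks nearest to ribosomal protein genes lay close to the starts. These peaks numbered 107, 139, 30 and 78 in control 1, control 2, CpG 1 and CpG 2. The summit was within 1 kb of the start for 49.5%, 52.5%, 66.7% and 65.4% of them, against 34%, 30.8%, 29.5% and 35.6% of the peaks nearest to protein-coding genes. Within that window the median summit was at -27, -7, -51.5 and -8 bp from the start, so the peaks straddled it. Peaks farther than 10 kb from the start made up 14%, 13.7%, 13.3% and 14.1% of those nearest to ribosomal protein genes and 31.3%, 33.4%, 40.5% and 32.8% of those nearest to protein-coding genes. Many of these promoters are shared. Of the promoter peaks of ribosomal protein genes, 43.6%, 32.6%, 42.9% and 37.8% were also in the Promoter class of another gene, compared with 12.9%, 12%, 13.7% and 13.3% of all promoter peaks. Several ribosomal protein genes host or adjoin small nucleolar RNA genes, and a peak cannot be assigned to 1 of the genes it covers.

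**Figure D2:**
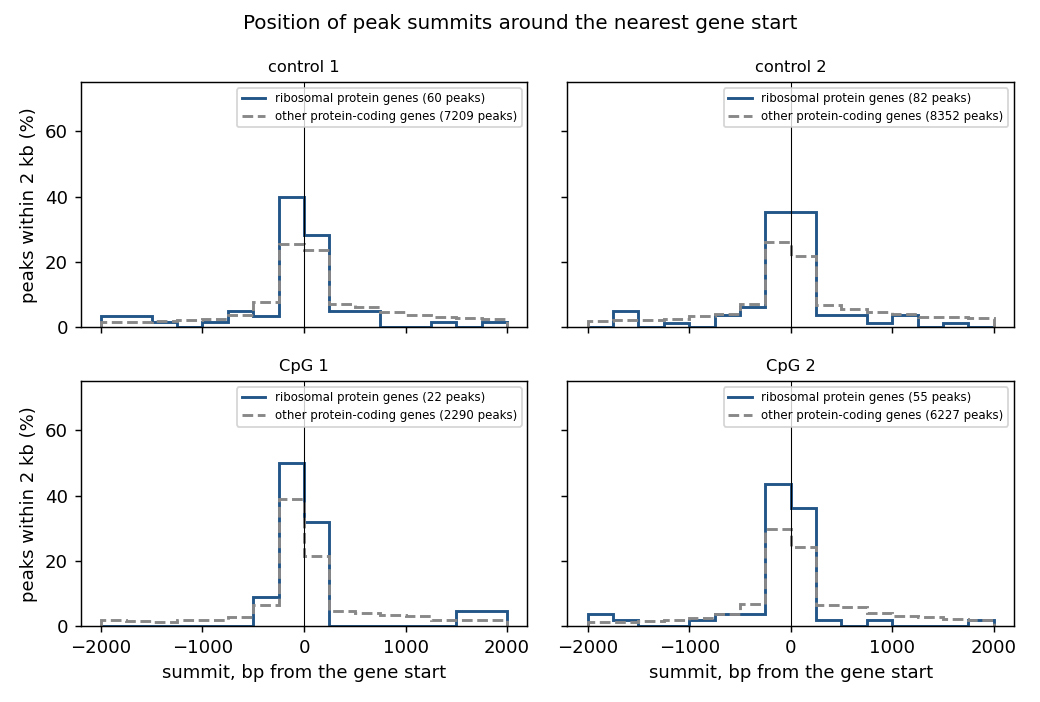
Position of peak summits relative to the nearest gene start, in bins of 250 bp along the gene's strand, as a percentage of the peaks within 2000 bp, for ribosomal protein genes (solid line) and other protein-coding genes (dashed line) in each library. Both sets are highest in the bins next to the start, and the solid line is the higher one there in every library.

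When peaks of the 4 libraries were merged wherever they overlapped, ribosomal protein genes were nearest to 182 regions. Of these, 20 were found in all 4 libraries (11%), against 10.1% of 55621 regions over all genes, so recurrence over all their regions was near the background. The 79 regions within 1 kb of a start were found in all 4 libraries in 21.5% of cases, and the 103 regions farther away in 2.91%. The regions of all genes were not split by distance, so this contrast cannot be called particular to ribosomal protein genes. The 3 regions in all 4 libraries that lay farther than 1 kb from a start were next to Rps9, Rpl6l and Rps15a.

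Promoter peaks in all 4 libraries were found at 7 of the 77 genes (9.09%), among them Rpl10, Rpl13a, Rpl14, Rpl27, Rpl32 and Rps13, against 5.51% of all named genes and 7.76% of protein-coding ones. A further 13, 18 and 17 genes (16.9%, 23.4% and 22.1%) had one in 3, 2 and 1 libraries (background 9.52%, 9.85% and 15.1%), and 22 had none (28.6%, background 60.0%). Among protein-coding genes the shares were nearer, at 13.2%, 13.4% and 19.0%, and 46.6% had none. The count of 7 was limited by CpG 1, since 17 genes had a promoter peak in all of the other 3 libraries. The 10 that lacked one only in CpG 1 were 13.0% of the 77, against 7.6% of all named genes and 10.7% of protein-coding ones. By the distance rule 15 genes (19.5%) had a peak in all 4 libraries, against 6.62% of all named genes and 9.91% of protein-coding ones. These 15 left out Rps13 and added among others Rpl34, Rpl38, Rpl7, Rps12, Rps15a, Rps19, Rps26 and Rps9.

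Among the large subunit genes, Rpl14 was the most evenly marked. Fold enrichment is the authors' ratio of a peak's pileup to its local background, and because it depends on the library it is read here through the peak's percentile in its own list. Rpl14 encodes a protein of the subunit surface and lies on chromosome 9 at 120400509 to 120403720 in the files' coordinates. Its strongest promoter peak had a fold enrichment of 10.5 and 12.2 in the control libraries and of 7.75 and 8.25 in the CpG libraries. These were at percentiles 93.0, 90.7, 89.9 and 75.9, above percentile 75 in every list, and in CpG 1 this was the strongest promoter peak of any ribosomal protein gene. Its summits lay between -186 and -42 bp from the start given in the files.

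Rpl10 encodes a protein that joins the large subunit late in its assembly, near the peptidyl transferase centre, and lies on chromosome X at 73314417 to 73316741. Its promoter peak had a fold enrichment of 20.1, 17.6, 4.85 and 16.5 in control 1, control 2, CpG 1 and CpG 2. The percentiles of 99.4, 96.2, 44.2 and 96.1 put it near the top of 3 lists and below the middle in CpG 1. The summit was at -119, -208, -228 and -119 bp.

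Rpl32 had the most uneven peak. This large subunit gene lies on chromosome 6 at 115782465 to 115785708, minus strand. Its promoter peak had a fold enrichment of 99.9 in control 1, the highest of all 29226 peaks of that library, with a length of 2643 bp. In control 2, CpG 1 and CpG 2 it had values of 7.73, 4.0 and 4.62, at percentiles 71.4, 19.2 and 18.6, with lengths of 477, 188 and 139 bp. Within 9 kb of the start control 1 had 10 peaks and each of the other libraries had 1. The strongest signal at Rpl32 thus belonged to 1 control library and was not shared by the other. The authors' list for the whole control condition carries it as well, with a fold enrichment of 56.0.

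The other large subunit genes with a promoter peak in all 4 libraries were weaker. Rpl13a, whose protein is also known as part of a complex that silences the translation of inflammatory mRNAs, had fold enrichments of 3.58, 5.70, 4.0 and 6.57, at percentiles 4.36, 41.6, 19.5 and 57.7. Rpl27 had 6.79, 5.68, 3.8 and 7.41, at percentiles 70.0, 41.2, 13.8 and 68.1, with summits at -59, -7, -7 and -8 bp. Rpl27 thus had its summit almost at the same place in 3 libraries, with a rank that varied from list to list.

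Of the 9 genes of the large subunit with a peak within 1 kb in all 4 libraries, 4 lacked a Promoter class peak in at least 1 library. Rpl34, which had no Promoter class peak at all, had fold enrichments of 5.76, 6.99, 6.5 and 4.10 at its start, at percentiles 51.2, 63.8, 80.8 and 9.72. Rpl7 had 5.77, 5.83, 5.58 and 5.00, and Rpl38 had 9.04, 10.9, 3.60 and 10.6. Rpl7 had the narrowest range of fold enrichment of these 3 genes, at percentiles from 26.4 to 62.5, while Rpl38 lay above percentile 87 in 3 libraries and at 9.94 in CpG 1.

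The stalk of the large subunit, built from Rplp0, Rplp1 and Rplp2, recruits elongation factors. Rplp0 had a promoter peak in control 1 and CpG 2 only, and by the distance rule also in control 2, with fold enrichments of 8.59, 8.11 and 4.63 in control 1, control 2 and CpG 2. Rplp1 had peaks of 3.14 in control 2 and 5.30 in CpG 2. Rplp2 had no Promoter class peak, and its peaks within 1 kb were 4.12 in control 2 and 3.0 in CpG 2, at percentiles 9.47 and 1.05. None of the stalk genes had a peak within 1 kb in CpG 1.

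Rpl5 and Rpl11, which bind the 5S ribosomal RNA and restrain the p53 regulator MDM2, were marked weakly. Rpl5 had no Promoter class peak and had peaks within 1 kb of 4.61 in control 2 and 4.40 in CpG 2. Rpl11 had 1 promoter peak, of 4.73 in control 2. All 3 values lay below percentile 20 of their lists. Rpl3, which reaches towards the peptidyl transferase centre, had no peak within 1 kb in any library. It was nearest to 2, 3, 0 and 2 peaks, and the region found in 3 libraries had its strongest summit -7218 bp from the start.

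Promoter peaks were present at 14, 18, 6 and 16 of the 31 small subunit genes and at 20, 22, 8 and 16 of the 46 large subunit genes, in control 1, control 2, CpG 1 and CpG 2. The percentages were 45.2%, 58.1%, 19.4% and 51.6% for the small subunit and 43.5%, 47.8%, 17.4% and 34.8% for the large one. By the distance rule they were 64.5%, 80.6%, 25.8% and 61.3% against 56.5%, 89.1%, 26.1% and 60.9%, so the order of the subunits depended on the rule and the library.

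Rps13 had fold enrichments of 4.40, 4.95, 3.34 and 2.62, all at or below percentile 24.2 of their lists. Its peak also fell in the Promoter class of other genes, and Rps13 was the nearest gene of it only in control 2.

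Rps9, a protein of the decoding side of the small subunit, had the strongest recurrent peak, chosen for description after its values were seen. This peak was not at the start but at the other end of the gene, which lies on chromosome 7 at 3706991 to 3709896, plus strand. The merged region spans 3708300 to 3710527, and its strongest summit was 3293 bp past the start, just past the annotated end of the gene. Its fold enrichment was 23.8, 47.8, 12 and 28.8 in control 1, control 2, CpG 1 and CpG 2. It lay at percentiles 99.7, 99.8, 98.9 and 99.2, and its lowest percentile, 98.9, was the highest of all 182 regions. A second region over the start of Rps9 had fold enrichments of 12.6, 23.0, 5.00 and 7.62, at percentiles 96.5, 98.1, 47.1 and 70.7. At the far end all 4 peaks were therefore among the strongest 2% of their lists, while those at the start ranged from percentile 47.1 to 98.1.

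**Figure D3:**
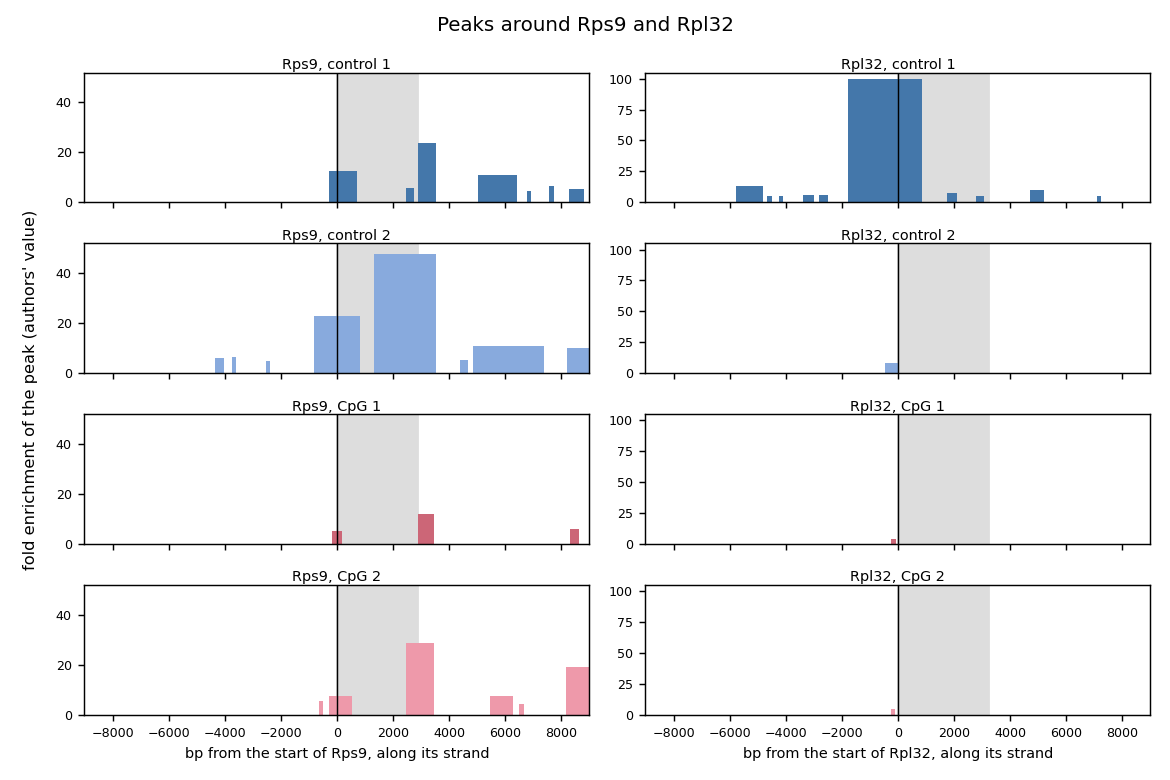
Peaks around Rps9 (left) and Rpl32 (right) in each library, drawn at their width along the gene's strand with 0 at the gene start (vertical line), the gene body shaded and the height giving the authors' fold enrichment. Rps9 has a peak past its end in all 4 libraries, from 12 in CpG 1 to 47.8 in control 2, and Rpl32 has a broad peak of 99.9 in control 1 beside peaks of at most 7.73 in the others.

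Rps26 had a promoter peak in both control libraries and in CpG 1, with fold enrichments of 14.3, 17.3 and 5.67, and a start peak of 5.12 in CpG 2 that was not in the Promoter class. The percentiles were 97.8 and 96.0 in the control libraries and 66.9 and 28.4 in the CpG libraries. Rps27a, which encodes ubiquitin fused to a ribosomal protein and was chosen after its values were seen, had peaks within 1 kb of its start in all 4 libraries when any nearest gene was allowed. These had fold enrichments of 20.1, 23.3, 8.55 and 11.2, at percentiles 99.4, 98.2, 93.8 and 89.0. It was the start region with the highest lowest percentile.

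Of the fixed small subunit genes, Rpsa, also known as the laminin receptor, had promoter peaks of 6.22 in control 1, 13.1 in control 2 and 8.54 in CpG 2, at percentiles 61.0, 92.2 and 78.4. Rps19, the gene mutated most often in Diamond-Blackfan anaemia, had start peaks of 3.35 and 8.03 in the control libraries and of 5.00 and 6.32 in the CpG libraries, where the control 1 peak was outside the Promoter class. Rps3, which sits at the mRNA entry, had start peaks of 6.30 in control 1, 6.5 in control 2 and 6.04 in CpG 2. These 3 genes were thus marked in 3 or 4 libraries at ranks that varied. Rps6, the protein that S6 kinases phosphorylate, had no peak within 1 kb in any library and was nearest to a single peak, 12100 bp past its start in control 2.

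**Figure D4:**
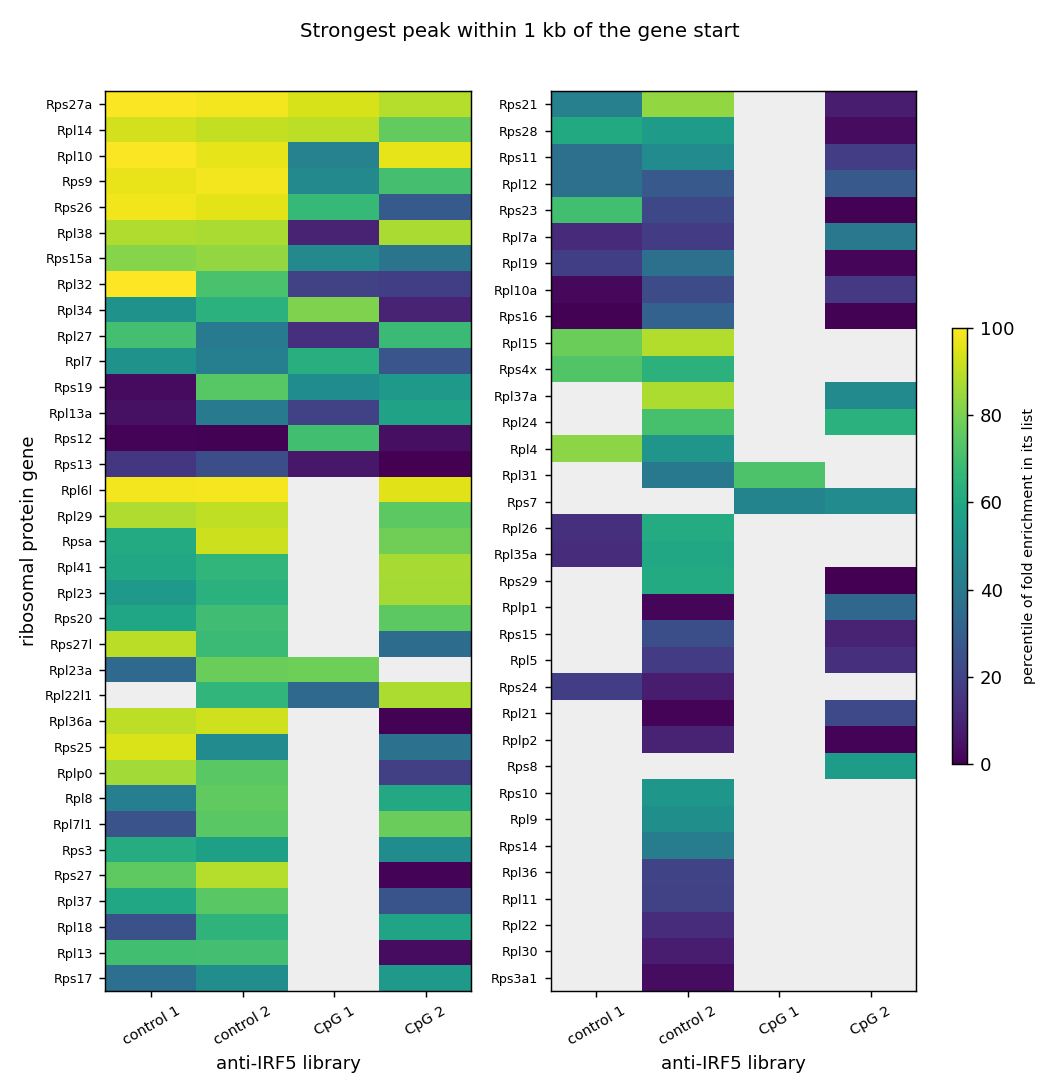
Strongest peak within 1 kb of the start, whatever its nearest gene, for ribosomal protein genes that had one in at least 1 library (rows) in the 4 anti-IRF5 libraries (columns), coloured by the percentile of its fold enrichment in its own list, with grey where no peak was listed. Rps27a and Rpl14 stay high in all 4 columns, the CpG 1 column is mostly grey, and Rpl32 is at the 100 percentile in control 1 alone.

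CpG treatment was compared with control over the 2 libraries of each condition. Ribosomal protein genes with a promoter peak numbered 37.0 ± 4.24 in control and 23.0 ± 12.7 in CpG (SD, n = 2), a difference of -14, with a two-sided p of 0.333 by exact permutation of the libraries, the smallest that 6 arrangements allow. The difference was -5 without CpG 1 and -23 without CpG 2. When each list was limited to its 13553 strongest peaks, the counts were 19, 25, 14 and 22 and the difference was -4. The difference thus changed with the length of the lists and with the library CpG 1. By the distance rule the counts were 56.0 ± 14.1 and 33.5 ± 19.1 (SD, n = 2), a difference of -22.5 with an exact permutation p of 0.667.

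The share of ribosomal protein genes with a promoter peak exceeded that of all named genes by 21.7 ± 2.30 percentage points in control and 13.6 ± 8.19 in CpG (SD, n = 2). The difference was -8.14 points (exact permutation p = 0.333), -2.35 without CpG 1, -13.9 without CpG 2 and -2.68 with lists of equal length. The median percentile of the promoter peaks was 43.4 and 50.7 in the control libraries and 47.8 and 38.5 in the CpG libraries, a difference of -3.89 between group means (exact permutation p = 0.667). It was -11.6 by the distance rule (exact permutation p = 0.333), -0.253 without control 2 and -8.54 without CpG 1, and its direction turned to 0.758 without CpG 2. With lists of equal length it was -22.4 (exact permutation p = 0.333), where percentiles were still those of the full lists and the longer lists had lost their low percentiles. All named genes had median percentiles of 47.8, 47.2, 37.3 and 44.6. The promoter peaks of ribosomal protein genes thus ranked lower than these in control 1 and CpG 2 and higher in control 2 and CpG 1, with the widest gap in CpG 1.

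Of the peaks nearest to ribosomal protein genes, a larger share was in the Promoter class in both CpG libraries. Here the Promoter class of any gene was counted, also that of a neighbouring gene. It was 43.9% and 45.3% in the control libraries and 56.7% and 53.8% in the CpG libraries, and the groups did not overlap. The means were 44.6 ± 0.989% and 55.3 ± 1.99% (SD, n = 2), a difference of 10.6 percentage points with an exact permutation p of 0.333, the smallest possible. Among peaks nearest to protein-coding genes the share was 24.8%, 23.8%, 24.0% and 26.3%. With the 13553 strongest peaks of each list the difference was 3.22 points and the groups overlapped.

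Control-only promoter peaks, present in both control libraries and in neither CpG library, were found at 9 of the 77 genes (11.7%), against 4.36% of all named genes and 6.06% of protein-coding ones. These were Rpl10a, Rpl13, Rpl15, Rpl26, Rpl6l, Rpl7l1, Rpl8, Rps16 and Rps27l. The number was 4 with lists of equal length. It was 16 without control 1 and 19 without CpG 2, where the rule asked for 1 library fewer and the number could not fall. The share of all named genes was not computed under these settings. Only Rpl15, Rpl26 and Rpl6l had no overlapping CpG peak of any class at the control peaks. Rpl15, which carries the longest pyrimidine tract of the starts printed above, had promoter peaks of 7.50 in control 1 and 11.3 in control 2, at percentiles 77.7 and 88.6. Rpl26, whose protein is also known to bind the p53 mRNA, had 4.24 and 6.94, at percentiles 13.7 and 61.7. Rpl6l had 6.03 and 8.94, with summits -692 and -634 bp from its start. A further region of this pseudogene, past its start by 1793 bp, was found in all 4 libraries at 15, 26.3, 5.15 and 15.9.

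Each of the remaining control-only genes had at least 1 control promoter peak that overlapped a CpG peak. Rpl8, close to the peptidyl transferase centre, had 5.48 and 8.20 in the control libraries and a start peak of 6.75 in CpG 2. Rpl13 had promoter peaks of 5.53 and 7.59, Rpl10a of 3.17 and 4.88 and Rps16 of 5.58 and 4.78 in control 1 and control 2. The start peaks of Rpl13 and Rpl10a in CpG 2 were 3.48 and 4.51. The promoter peaks of Rps16 with these values, and that of Rpl13 in control 1, lay more than 1 kb upstream of the start in regions found in the control libraries alone. The peaks of Rpl8 and Rpl13 in control 2 ranked highest of these, at percentiles 75.4 and 70.2. Rps27l reached percentile 89.6 in control 1, and its start peak in CpG 2 was 5.36, at percentile 35.3. Rpl7l1 reached percentile 74.6 in control 2, below its CpG 2 start peak of 8.42 at percentile 77.1. The CpG 2 start peak of Rps16 was 2.84, at percentile 0.617.

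The CpG-only rule called 1 gene, Rps9 (background 0.61% of all named genes), with promoter peaks of 5.00 and 7.62 in CpG 1 and CpG 2. Both control libraries had stronger-ranking peaks over the same start, annotated to the exon and 5' UTR, so no ribosomal protein gene had a CpG promoter peak without an overlapping control peak. Without CpG 1 the rule called 7 genes, without CpG 2 it called 3 and without control 2 it called 2. With a library left out the rule is easier to meet, so these counts could not fall below that of the full rule. No share of all named genes was computed with a library left out. By distance the single CpG-only gene (background 0.672%) was Rps7, chosen after its values were seen, with peaks of 4.90 in CpG 1 and 6.0 in CpG 2 at percentiles 45.0 and 48.2 and summits within 62 bp of the start.

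The 5 strongest promoter peaks in each library recurred in part. In control 1 they belonged to Rpl32, Rpl10, Rps26, Rpl14 and Rps27l, and in control 2 to Rpl10, Rps26, Rpsa, Rpl14 and Rpl29. In CpG 1 they included those of Rpl14, Rpl31, Rps12 and Rps26, and in CpG 2 those of Rpl10, Rpl23, Rpsa and Rpl14. Rpl14 was the only gene in this group in all 4 libraries. Rpl29 had promoter peaks of 9.03, 12.1 and 8.02 in control 1, control 2 and CpG 2, Rpl23 had 5.93 and 10.4 in control 1 and CpG 2, and Rpl31 had 5.63 and 6.0 in control 2 and CpG 1. Rps12 had promoter peaks of 2.96, 5.46 and 5.84 in control 1, control 2 and CpG 1, at percentiles 1.17, 36.0 and 69.7.

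Paralog pairs did not share their marks evenly by the distance rule. Rpl7 had peaks within 1 kb in all 4 libraries and its paralog Rpl7l1, a factor of ribosome assembly, in 3, with fold enrichments of 4.78, 8.11 and 8.42 in control 1, control 2 and CpG 2. Rpl22 had 1 such peak, of 4.35 in control 2, whereas Rpl22l1 had peaks of 7.21 in control 2, 4.60 in CpG 1 and 10.8 in CpG 2, none of them in the Promoter class. Rps27 had start peaks of 7.17 and 11.4 in control 1 and control 2. A CpG 2 peak of 3.0, at percentile 1.05, was in its Promoter class but had another nearest gene. Rps27l, a p53 target, had 9.32, 7.44 and 5.36 in control 1, control 2 and CpG 2. In each of these pairs the paralog was marked by this rule in at least as many libraries as the main gene except for Rpl7. With any nearest gene allowed, Rps27 and Rps27l each had a peak within 1 kb in 3 libraries.

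Of the 22 genes with no promoter peak in any library, 14 had a peak within 1 kb of the start in at least 1 library. The matching share of all named genes was not computed, so this count cannot be called particular to ribosomal protein genes. The genes of this group nearest to most peaks were Rps3a3, with 3, 5, 2 and 3 peaks, Rpl3, Rpl34, with 2, 2, 1 and 1, and Rpl9, with 1, 3, 0 and 0. All peaks of Rps3a3, a pseudogene, were distal, and its most recurrent region had its strongest summit 16004 bp past the start. Rpl9 had 1 peak within 1 kb, of 4.06 in control 2.

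The word GAAA, any 2 bases, GAAA was searched for on both strands in the 250 bases before each RefSeq start, since it is the word IRF proteins are known to bind. It was found in 6 of 67 ribosomal protein windows (8.96%), against 2.98% of all 32851 windows and 2.67% of those of the protein-coding genes named here. The matches, in capitals, are printed along the gene from GRCm38.p6, with the position of the first capital relative to the start, because these are the ribosomal protein promoters in which the IRF word occurs.
Rpl4, chr9:64173361-64173386, plus strand, -16: gtgacaagtcTTTCCTTTTCctgtgg
Rpl38, chr11:114668469-114668498, plus strand, -101: cagggctgctGAAATTGAAAtgatgaacgc
Rpl5, chr5:107900390-107900419, plus strand, -128: aaagcctctaTTTCCCTTTCtcatcgccca
Rps23, chr13:90922951-90922980, plus strand, -161: tcatttgcctGAAAAGGAAAtaacagcgta
Rps19, chr7:24884407-24884436, plus strand, -175: cacgcccaagGAAACGGAAAgaggaaccag
Rps7, chr12:28636148-28636177, minus strand, -214: agctgctttcTTTCTTTTTCctagggccgt
The IRF word lies on the strand shown in Rpl38, Rps23 and Rps19 and on the opposite strand in the other 3. Peaks within 1 kb of the start were found at 4, 5, 3 and 5 of these 6 genes in control 1, control 2, CpG 1 and CpG 2. Of the 50 genes with an entry and no match, 30, 44, 11 and 29 had one. By the Promoter class, 0, 2, 2 and 2 of the 6 genes had a peak, against 22, 27, 9 and 19 of the 50, so which set had the larger share in control 1 and CpG 2 depended on the rule. Rps19 and Rpl38 had a peak in all 4 libraries, and Rps7 had its peaks in the CpG libraries alone. Rps23 had peaks of 6.76, 4.79 and 2.71 in control 1, control 2 and CpG 2, and Rpl4 had 8.04 and 6.25 in the control libraries. A match is a stretch of letters and not a measured binding site, and 6 genes are too few to set the libraries against each other.

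Other promoter words were counted in the same windows on both strands, and matches of different words were allowed to overlap. CCGGAAG, a word of ETS factors such as GABP, was in 23.9% of ribosomal protein windows, 6.91% of all windows and 11.8% of those of protein-coding genes named here. AAGATGG, a word of YY1, was in 7.46%, 4.49% and 4.29%. The GC box GGGCGG was in 49.3%, 32.7% and 53.4%, and TATAAA was in 4.48%, 12.4% and 7.73%. Of the 29 genes with a GC box, 17, 17, 8 and 13 had a promoter peak in control 1, control 2, CpG 1 and CpG 2, and of the 27 without one, 5, 12, 3 and 8 had one. The 5 genes with both a RefSeq entry and a promoter peak in all 4 libraries all had a GC box. Promoter peaks were not counted by GC box over all genes, so these counts cannot be called particular to ribosomal protein genes.

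Genes that work with the ribosomal proteins were counted by the same Promoter class rule, to be read against the background shares above. Elongation factor genes had promoter peaks at 4, 3, 2 and 3 of 7, genes of ribosome biogenesis and RNA polymerase I at 11, 11, 3 and 8 of 25, and S6 kinase genes at 3, 3, 2 and 4 of 7. Of 12 other genes with an oligopyrimidine tract or a fused ribosomal protein, 4, 9, 2 and 5 had one, and Hnrnpa1, an RNA-binding protein, had one in all 4 libraries. The 56 mitochondrial ribosomal protein genes had 24, 26, 6 and 20, or 42.9%, 46.4%, 10.7% and 35.7%. These shares were below those of the cytoplasmic genes in each library, though by little in control 1, where the cytoplasmic share was 44.2%. Biogenesis genes were below the cytoplasmic genes in each library as well, while elongation factor and S6 kinase genes were above them in some libraries. Mrpl41, Mrpl52 and Mrps18b had a promoter peak in all 4 libraries. Mrps18b had fold enrichments of 8.65, 10.3, 8.73 and 17.3, at percentiles between 85.7 and 96.4.

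The regulators upstream of ribosome synthesis had promoter peaks at 5, 7, 5 and 7 of 11 genes, or 45.5%, 63.6%, 45.5% and 63.6%. These shares were above those of the cytoplasmic ribosomal protein genes in each library, so a high share was not particular to the latter. Rheb, the GTPase that activates mTOR, Myc, which drives ribosome synthesis, and Eif4ebp2, a repressor of translation that mTOR inactivates, had one in all 4 libraries. Myc had fold enrichments of 5.11, 12.2, 5.97 and 11, at percentiles 36.0, 90.7, 70.8 and 88.2. Rheb had 5.84, 10.4, 4.17 and 16.1. Eif4ebp2 had 26, 9.78, 4.86 and 4.14, at percentiles 99.8, 83.6, 44.4 and 10.1. Of the S6 kinase genes, Rps6ka2 and Rps6ka5 had a promoter peak in all 4 libraries, with fold enrichments of 4.12, 7.46, 2.24 and 6.43 for Rps6ka2 and 5.92, 8.13, 3.06 and 7.77 for Rps6ka5.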

How the data were processed

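The data were 6 annotated peak lists, 4 of single anti-IRF5 libraries and 2 of whole conditions. The submitters' processing notes name fastp (0.20.0), the aligner BWA (0.7.12), the peak caller MACS2 (2.1.0) and ChIPseeker, and no source used here names the genome build. The lists give the pileup (signal) and the fold enrichment (ratio to local background) of each peak as deposited by the authors. The −log10 p-value and −log10 q-value were also deposited by the authors, and their damaged headers were read from column order and values. Lines that continued overlong cells and peaks off the 21 assembled chromosomes were left out. Depth is unknown, so no confidence intervals are given and 2 libraries per condition limit the precision.

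Genes were counted per library with Python 3.11.15, pandas 2.3.3, numpy 2.4.6 and scipy 1.17.1, by the Promoter class, and alternatively by nearest gene within 1 kb or at any distance. Counting was tested on simulated data, where each of the 3 rules returned 100.0% of planted calls over 2000 genes. Conditions were compared by two-sided exact permutation tests over libraries. Gene types, promoters and starts came from RefSeq, GRCm38.p6, matched by symbol. Alternatives were a −log10 q of at least 5, lists of equal length, other gene sets, non-overlapping peaks and each library left out.

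The members, lists and genes named were chosen with earlier results of these data known. Named were 10 fixed genes, genes with promoter peaks in all 4 libraries or in both libraries of 1 condition alone, the 5 strongest promoter peaks per library, paralog pairs, and up to 5 genes nearest to most peaks without a promoter peak. Of those last, 4 are given, since the next ones tied. Some genes that these rules would name are not reported here.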

Additional observations from a re-analysis of the deposited data

How the results depend on the processing

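The mean gap between ribosomal protein genes and all named genes in the share with a promoter peak, 17.6 percentage points, stayed positive as a mean under every alternative, although CpG 1 alone was below the background at any distance. It was 32.0 with the nearest gene within 1 kb, 8.03 with the nearest gene at any distance, 9.82 against protein-coding genes, and 32.8 with any peak within 1 kb of the start, an alternative chosen after seeing the data. Leaving out 1 library gave 15.7 to 20.9. The number of genes with a promoter peak in all 4 libraries was 15 within 1 kb, 21 at any distance and 17 with any peak within 1 kb of the start, and 7 to 17 with 1 library left out. With no library left out, these were 19.5%, 27.3% and 22.1% of the genes, against 6.62%, 24.7% and 9.75% of all named genes. CpG-only genes numbered 0 when no overlapping control peak was allowed, and 1 to 7 with 1 library left out. Control-only genes numbered 4 with lists of equal length, 3 without an overlapping CpG peak and 22 from the authors' lists of whole conditions, and 11 to 19 with 1 library left out. Shares of all named genes were not computed for these CpG-only and control-only counts. With 1 library left out, each of these rules and that of all 4 libraries asked for 1 library fewer. Those counts could therefore only stay or rise. Leave-one-out ranges of the CpG minus control differences were -23 to -5 genes, -13.9 to -2.35 points for the gap, -8.54 to 0.758 for the median percentile, and 9.22 to 12 points for the Promoter class share. Without the 5 paralog-like symbols 72 genes remained and the difference was -11 genes. Replicate numbers were shared by the conditions, but deviations of same-numbered libraries over 20824 genes correlated at only 0.0445. With the replicate number as a block the differences were -14.0 genes, -8.14 points, -3.89 and 10.6 points, with exact permutation p of 0.5, or 1.0 for the median percentile, and the smallest p of that design is 0.5. Of 31 named genes, the number of libraries with a peak was unchanged for 27 at a −log10 q of at least 5, 19 with lists of equal length and 13 by the distance rule.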

Other observations

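The annotated ribosomal pseudogenes, whose symbols end in -ps with a number and which were left out of the rule, seldom had a peak at their start. Of 108 such symbols nearest to a peak, 3, 7, 6 and 6 had one within 1 kb in control 1, control 2, CpG 1 and CpG 2, or 2.78%, 6.48%, 5.56% and 5.56%. Promoter class peaks were found at 4, 11, 4 and 6 of them (3.7%, 10.2%, 3.7% and 5.56%), and at none in all 4 libraries. The background was 30.7%, 34.6%, 11.6% and 27.5% of all named genes within 1 kb. By the Promoter class it was 24.1%, 28.6%, 10.4% and 22.2%. At any distance 59, 75, 51 and 71 of them were nearest to a peak, or 54.6%, 69.4%, 47.2% and 65.7%. All named genes had 64.0%, 72.0%, 43.1% and 61.5%, so the pseudogenes were below them in the control libraries and above them in the CpG libraries. Pseudogenes of this family are mostly intronless copies inserted away from the promoter of their source gene, and reads from near-identical copies cannot be placed with certainty.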
